A study of Mus musculus with 23 samples.

Results

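The genes coding for the proteins of the cytosolic ribosome were followed through 23 RNA-seq libraries of primary mouse embryonic fibroblasts (MEFs). Members were chosen by name alone, as protein-coding genes with an Rpl or Rps symbol followed by a number, together with Rpsa, Rplp0, Rplp1 and Rplp2 and without the Rps6k kinases. This gave 83 genes of the 55487 in the count table, namely 31 of the small (40S) subunit, 43 of the large (60S) subunit, 3 of its stalk, and 6 further paralogues of these (Rpl3l, Rpl10l, Rpl22l1, Rpl39l, Rps27l and Rpl7l1). The MEFs were FVB/NJ cells grown from E13.5 embryos and differed in the glucocorticoid receptor, which was either unmodified (GRwt/wt) or homozygous for a point mutation. In GRD/D, threonine replaced an alanine where 2 DNA-binding domains meet. In GRL/L, alanine replaced an isoleucine of the ligand-binding domain, by CRISPR, and GRD+L/D+L cells held the pair of mutations. Each genotype was given vehicle or 10 nM dexamethasone (Dex), a synthetic glucocorticoid, for 5 h. Groups held 3 libraries each, except GRD/D vehicle with 2, and the study describes the cultures of a genotype as coming from different mice. Homozygous animals with the L change are not viable after birth, and head and organs were removed from the embryos before culture.

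Every cytosolic ribosome is built from a small subunit that reads the mRNA and a large subunit that joins amino acids, and the proteins of both are needed in nearly equal amounts. Their mRNAs are short, abundant and long-lived, and many begin with a run of pyrimidines that lets mTORC1, through the binding protein LARP1, switch their translation as a block. Glucocorticoids are known to restrain this pathway in muscle and lymphoid tissue, in part through mTORC1 inhibitors such as Ddit4. Ribosomal protein mRNAs are also the most frequent parents of processed pseudogenes, the intronless copies that reverse transcription leaves in the genome, and reads that fit a gene and its copy equally well are lost when only uniquely mapped reads are counted.

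The pyrimidine run was looked for in the 30 bases around each RefSeq transcription start (GRCm38.p6), 15 before and 15 after, as a C followed by at least 4 further C or T on the strand of the gene. It was present in 44 of the 75 start sites listed for 63 of the members (58.7%), against 36.4% of 32851 start sites of all genes. The windows of 3 members with a run, Rps6 (chr4:86857353-86857382, minus strand), Rpl13a (chr7:45128731-45128760, minus strand) and Rps18 (chr17:33955651-33955680, minus strand), and of Rplp0 (chr5:115559452-115559481, plus strand), which had none in this window, show what the run looks like, with the letters of the longest run in capitals.
Rps6: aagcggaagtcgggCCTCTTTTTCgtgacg
Rpl13a: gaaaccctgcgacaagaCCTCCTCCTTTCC
Rps18: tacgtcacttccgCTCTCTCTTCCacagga
Rplp0: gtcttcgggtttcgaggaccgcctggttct
A match describes these letters only, and the windows of Rpl5, Rpl11, Rpl41 and Rpl10 likewise held no such run.

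Library totals lay between 16452539 and 23117080 counts. The library GRwt/wt vehicle 1 stood apart before any comparison was made. Across 13851 tested protein-coding genes its deviation from the mean of all libraries rose with the GC content of the transcript (Spearman's correlation 0.72 over genes that share a library), whereas this correlation was 0.29 in GRwt/wt Dex 1 and between -0.29 and -0.003 in the other 21 libraries. Of 5 muscle markers, Des stood at 210.0 CPM (counts scaled by TMM to a common library size) in this library, where Myod1, Myog, Ckm and Actc1 were at 0. The 5 summed to 140.0 CPM in GRwt/wt Dex 1, nearly all of it Des, and to 1.61 to 19.5 elsewhere. Fibroblast markers summed to 32858 to 57366 CPM in all libraries. Within this list of 10, GRwt/wt vehicle 1 was the lowest of the 23 libraries for Pdgfra (152 CPM), Dcn (84.1) and Lum (11.3), and among the 3 highest for Thy1 (297), S100a4 (129.8) and Vim (7268). The 8 macrophage markers summed to 4402 CPM in GRwt/wt vehicle 3, to 243 to 1487 in GRD/D, to 271 to 678 in GRL/L, to 8.05 to 77.3 in GRD+L/D+L and to 16.7 to 92.0 in the other GRwt/wt libraries. Epithelial markers summed to at most 5.30 CPM, endothelial markers to 3.37 to 20.8, erythroid markers to at most 0.187, and proliferation markers to 143 to 413. Of these 7, GRwt/wt vehicle 1 was lowest for Mki67 (1.93 CPM), Top2a (2.70) and Ccnb1 (3.92), and highest for Mcm2 (45.7). For the comparisons that use GRwt/wt vehicle 1, the median over the members is also given without it.

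The 83 genes took between 3.01 and 6.16% of all counts in a library. Their share was 6.16, 4.48 and 3.98% in the 3 GRwt/wt vehicle libraries, 4.75, 3.57 and 3.42% in GRwt/wt Dex, 3.71 and 3.36% in GRD/D vehicle and 3.66, 4.07 and 3.81% in GRD/D Dex. It was 3.02, 3.29 and 3.12% in GRL/L vehicle, 3.21, 3.33 and 3.09% in GRL/L Dex, 3.65, 3.08 and 3.01% in GRD+L/D+L vehicle and 3.52, 3.20 and 3.10% in GRD+L/D+L Dex. All 3 GRwt/wt vehicle libraries thus lay above all 6 GRL/L and all 6 GRD+L/D+L libraries, and GRwt/wt vehicle 1 was the highest of the 23. Same-numbered vehicle and Dex libraries of GRL/L and of GRD+L/D+L are taken as pairs, so the libraries of such a set of 6 are not independent, here and below. Counts on 40S genes relative to counts on 60S and stalk genes varied little, from 0.741 to 0.793. In a culture a smaller share of ribosomal protein mRNA can come, among other sources, from fewer cells of a kind rich in it or from less of it per cell. The share can also depend on how a library represents transcripts by GC content or length. Bulk counts cannot tell these apart, and none was tested.

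**Figure D1:**
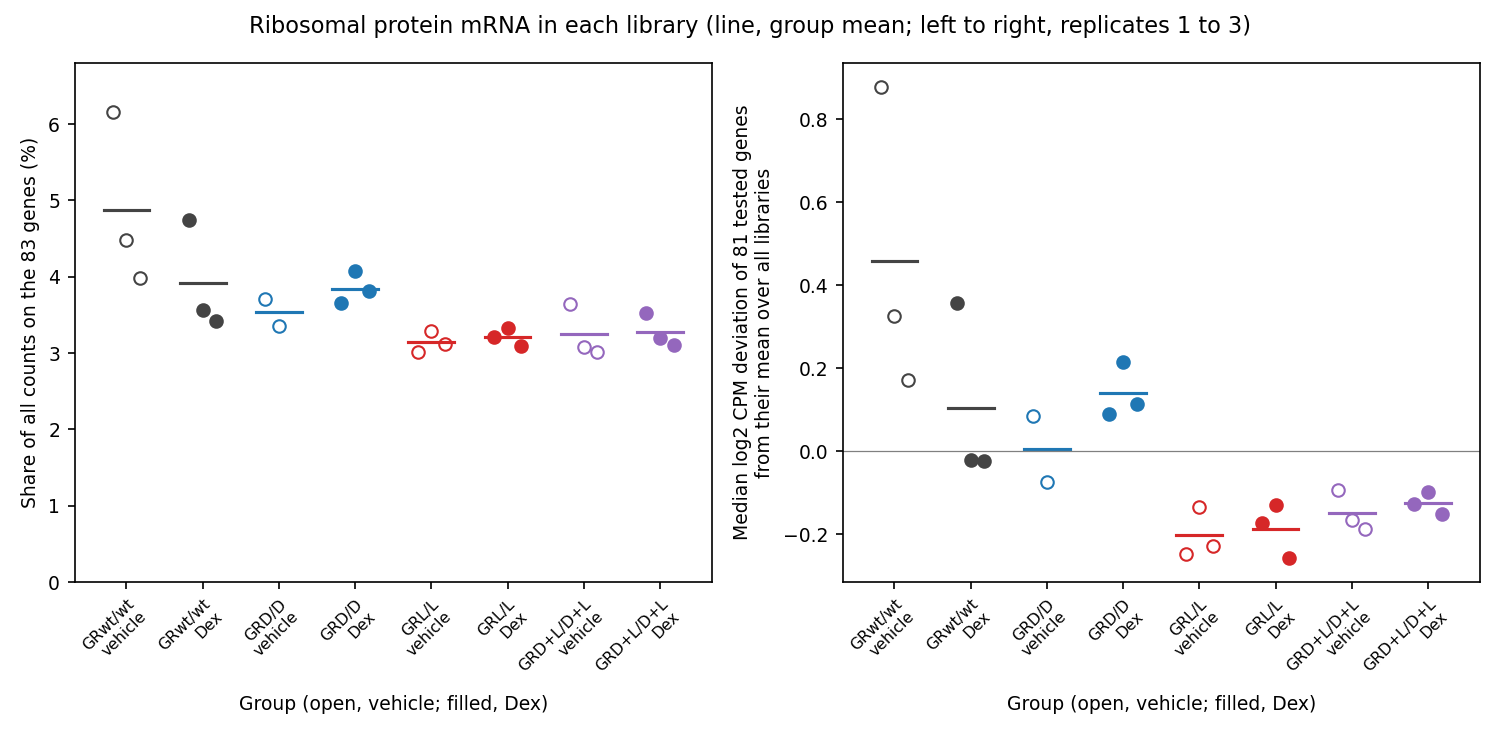
Share of all counts on the 83 ribosomal protein genes (left, percent) and the median over the 81 tested genes of log2 CPM minus the gene's mean over 23 libraries (right), with 1 point per library and a line at the group mean. GRwt/wt vehicle 1 is highest in both panels at 6.16% and 0.88, and the GRD+L/D+L and GRL/L libraries have medians between -0.26 and -0.09.

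Levels per kilobase of transcript differed widely between members. The length used was that of the shortest coding transcript with the same coding length as the principal one. For Rplp2 this was 421 bases, where the principal transcript has 964, and the ranks depend on this choice. The median over libraries was highest for Rplp1 (2018 CPM per kb), a stalk protein, followed by Rps12 (1609), Rpl41 (1279), Rpl32 (1053), Rplp2 (999) and Rpl4 (993), and its median over all 83 genes was 489. At the other end stood the paralogues Rpl10l and Rpl3l, the testis and striated muscle forms of Rpl10 and Rpl3, with 1 and 7 counts in all 23 libraries together, which left 81 genes to be tested. Rpl24 (0 to 14 counts per library) and Rps10 (14 to 54 counts) were also near the floor although both are obligate ribosomal proteins. These ranks were read after the values were seen.

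Among the 40S genes, Rps6 codes for the protein that S6 kinase phosphorylates. Rps6 stood at 418, 424 and 368 CPM in GRwt/wt with vehicle and 460.3, 349 and 336 with Dex, and at 343 and 313 in GRD/D vehicle and 358, 389 and 347 with Dex. For Rps6, GRL/L had 293, 321 and 295 CPM with vehicle and 298, 317 and 294 with Dex, and GRD+L/D+L had 343, 270.0 and 284 with vehicle and 331, 279 and 292 with Dex. All mutant vehicle libraries lay below the 3 GRwt/wt vehicle libraries, and the highest value belonged to GRwt/wt Dex 1. Rps18, whose protein sits in the head of the small subunit, stood at 538, 343 and 315 CPM in GRwt/wt with vehicle and 369.8, 261 and 237 with Dex, and at 298 and 261 in GRD/D vehicle and 282, 324 and 289 with Dex. For Rps18, GRL/L had 206, 222 and 222 CPM with vehicle and 229, 225 and 216 with Dex, and GRD+L/D+L had 249, 243 and 216 with vehicle and 236, 239 and 224 with Dex. GRwt/wt vehicle 1 was the highest library, and the 6 GRL/L libraries lay below all 6 GRwt/wt libraries. Rps2, a protein near the mRNA entry channel (GRCm38 chr17:24718116-24721929 on the plus strand), stood at 1276, 771 and 659 CPM in GRwt/wt with vehicle and 796, 487 and 648 with Dex, and at 609 and 555 in GRD/D vehicle and 621, 699 and 596 with Dex. For Rps2, GRL/L had 407, 470.3 and 438 CPM with vehicle and 434, 473 and 427 with Dex, and GRD+L/D+L had 507, 498 and 427 with vehicle and 520.5, 446 and 444 with Dex. Its 3 vehicle groups of mutants lay below GRwt/wt vehicle without overlap, and with Dex this held for GRL/L alone.

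Rps20, a protein of the small subunit's head, stood at 1205, 938 and 813 CPM in GRwt/wt with vehicle and 869, 783 and 774 with Dex, and at 764 and 660.0 in GRD/D vehicle and 810.4, 832 and 792 with Dex. For Rps20, GRL/L had 604, 689 and 626 CPM with vehicle and 632, 685 and 601 with Dex, and GRD+L/D+L had 622, 534 and 581 with vehicle and 609, 601 and 604 with Dex. All 12 libraries that carried the L change lay below all 6 GRwt/wt libraries. These 12 are vehicle and Dex pairs and not independent, and the share of all genes that separate in this way is not given here or below. Rps15a stood at 447, 500.4 and 451 CPM in GRwt/wt with vehicle and 484, 376 and 403 with Dex, and at 445 and 374 in GRD/D vehicle and 425, 459.7 and 422 with Dex. For Rps15a, GRL/L had 316, 354 and 345 CPM with vehicle and 344, 367 and 342 with Dex, and GRD+L/D+L had 349, 292 and 330.5 with vehicle and 340.1, 357 and 358 with Dex. Here too the 12 libraries with the L change lay below the 6 GRwt/wt libraries, and the highest was GRwt/wt vehicle 2. Rps28 and Rps29 are among the smallest 40S proteins and lie on chr17 and chr12 (chr17:33819027-33824562 on the minus strand, and chr12:69157722-69159186 on the minus strand). Rps28 stood at 281, 248 and 204 CPM in GRwt/wt with vehicle and 239, 217 and 212 with Dex, and at 194 and 177 in GRD/D vehicle and 196, 208 and 191 with Dex. For Rps28, GRL/L had 163, 169 and 162 CPM with vehicle and 169, 164 and 162 with Dex, and GRD+L/D+L had 197, 171 and 171 with vehicle and 188, 182 and 159.9 with Dex. It was highest in GRwt/wt vehicle 1. Rps29 stood at 621, 541 and 504 CPM in GRwt/wt with vehicle and 522, 411 and 450.2 with Dex, and at 425 and 378 in GRD/D vehicle and 409.5, 485 and 442 with Dex. For Rps29, GRL/L had 312, 376 and 329 CPM with vehicle and 339, 362 and 319.8 with Dex, and GRD+L/D+L had 373, 349 and 325 with vehicle and 345, 367 and 336 with Dex. In both genes the 12 libraries with the L change lay below all 6 GRwt/wt libraries, and Rps28 was also lower in GRD/D Dex than in GRwt/wt Dex without overlap.

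Among the 60S genes, Rpl5 and Rpl11 bind the 5S RNA, and the complex they form restrains Mdm2 when ribosome assembly fails. Rpl5 stood at 330.5, 487 and 474 CPM in GRwt/wt with vehicle and 543, 412 and 407 with Dex, and at 438 and 409 in GRD/D vehicle and 461, 496 and 449.9 with Dex. For Rpl5, GRL/L had 364, 388 and 383 CPM with vehicle and 384, 407 and 364 with Dex, and GRD+L/D+L had 429.8, 371 and 374 with vehicle and 421, 402 and 374 with Dex. GRwt/wt vehicle 1 was the lowest library of all for Rpl5, and the vehicle groups overlapped. Rpl11 stood at 811, 495 and 465 CPM in GRwt/wt with vehicle and 555, 409 and 363 with Dex, and at 454 and 395 in GRD/D vehicle and 436, 472 and 459 with Dex. For Rpl11, GRL/L had 357, 386 and 347 CPM with vehicle and 369, 372 and 342 with Dex, and GRD+L/D+L had 404, 337 and 358 with vehicle and 398, 341 and 381 with Dex. For Rpl11 the same library was the highest, every mutant vehicle library lay below GRwt/wt vehicle, and the groups with Dex overlapped. Rpl13a (GRCm38 chr7:45125558-45128761 on the minus strand), a surface protein of the large subunit that is also used as a reference gene in PCR, stood at 128, 89 and 75.4 CPM in GRwt/wt with vehicle and 81.6, 48.7 and 60.2 with Dex, and at 70.1 and 62.5 in GRD/D vehicle and 72.2, 74.7 and 67.3 with Dex. For Rpl13a, GRL/L had 38.1, 43 and 37.9 CPM with vehicle and 41.1, 45 and 43 with Dex, and GRD+L/D+L had 49.2, 40.1 and 41.7 with vehicle and 50.5, 40.8 and 40.4 with Dex. The 3 GRwt/wt vehicle libraries lay above all vehicle libraries of the mutants, and the 6 GRL/L libraries lay below all 6 GRwt/wt libraries.

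Rpl10, one of the last proteins to join the large subunit, stood at 1316, 845 and 746 CPM in GRwt/wt with vehicle and 899.6, 660.4 and 724 with Dex, and at 699 and 624 in GRD/D vehicle and 727, 772 and 712 with Dex. For Rpl10, GRL/L had 572, 618 and 548 CPM with vehicle and 585, 632 and 529 with Dex, and GRD+L/D+L had 675, 676 and 584 with vehicle and 659, 679.9 and 616 with Dex. Rpl10 was highest in GRwt/wt vehicle 1. Rpl41, the shortest of the ribosomal proteins, stood at 1143, 735 and 687 CPM in GRwt/wt with vehicle and 748, 559 and 559 with Dex, and at 611 and 505 in GRD/D vehicle and 611, 683 and 631 with Dex. For Rpl41, GRL/L had 467, 534 and 479.8 CPM with vehicle and 505, 522 and 471 with Dex, and GRD+L/D+L had 540.4, 613 and 515 with vehicle and 538, 647 and 526 with Dex. Both genes were highest in GRwt/wt vehicle 1 and lower in every mutant vehicle library than in GRwt/wt vehicle, and with Dex the same held for GRL/L. Rpl35 stood at 237, 162 and 151 CPM in GRwt/wt with vehicle and 148, 116 and 113 with Dex, and at 121 and 129 in GRD/D vehicle and 140.3, 136 and 136 with Dex. For Rpl35, GRL/L had 112, 118 and 111 CPM with vehicle and 115, 122 and 114 with Dex, and GRD+L/D+L had 126, 115 and 117 with vehicle and 117, 125 and 128 with Dex. Rpl35, which lies beside the exit of the peptide tunnel, was lower in the 3 GRwt/wt Dex libraries than in the 3 vehicle libraries without overlap. Rpl27a stood at 549.8, 405 and 332 CPM in GRwt/wt with vehicle and 348, 293 and 304 with Dex, and at 304 and 269 in GRD/D vehicle and 323, 342 and 319 with Dex. For Rpl27a, GRL/L had 243, 276 and 261 CPM with vehicle and 248, 282 and 248 with Dex, and GRD+L/D+L had 274, 241 and 252 with vehicle and 274, 264 and 255 with Dex. Both genes were lower in every mutant vehicle library than in GRwt/wt vehicle. Rpl39, another protein of the tunnel, stood at 443, 309 and 280.2 CPM in GRwt/wt with vehicle and 289.6, 237 and 252 with Dex, and at 246 and 223 in GRD/D vehicle and 244, 263 and 261 with Dex. For Rpl39, GRL/L had 191, 223 and 216 CPM with vehicle and 206, 234 and 202 with Dex, and GRD+L/D+L had 221, 188 and 205 with vehicle and 210.2, 238 and 222 with Dex. Its highest library was GRwt/wt vehicle 1, and its mutant vehicle groups did not overlap with GRwt/wt vehicle.

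Rpl23, which also binds Mdm2, stood at 639, 838 and 776 CPM in GRwt/wt with vehicle and 829.9, 722 and 678 with Dex, and at 707 and 662 in GRD/D vehicle and 781, 797 and 770.5 with Dex. For Rpl23, GRL/L had 611, 662 and 635 CPM with vehicle and 648, 693 and 623 with Dex, and GRD+L/D+L had 646, 621 and 626 with vehicle and 641, 678 and 642 with Dex. It was highest in GRwt/wt vehicle 2, and its vehicle groups overlapped. Rpl17 stood at 656, 678 and 631 CPM in GRwt/wt with vehicle and 672, 546 and 506 with Dex, and at 607 and 521 in GRD/D vehicle and 579.5, 643 and 589.7 with Dex. For Rpl17, GRL/L had 511, 564 and 536 CPM with vehicle and 529, 568 and 506 with Dex, and GRD+L/D+L had 551, 524 and 535 with vehicle and 560.3, 612 and 569 with Dex. It too was highest in GRwt/wt vehicle 2. Rpl29, a gene with 105 sequence copies in the genome, stood at 39.6, 31.9 and 25.1 CPM in GRwt/wt with vehicle and 28.3, 23 and 27.8 with Dex, and at 24.1 and 23.6 in GRD/D vehicle and 27.6, 28.2 and 25.5 with Dex. For Rpl29, GRL/L had 18.7, 19.5 and 22.8 CPM with vehicle and 22.8, 21.2 and 21.9 with Dex, and GRD+L/D+L had 21.2, 22 and 21.6 with vehicle and 19.5, 21.6 and 20.1 with Dex. Both were lower in each mutant vehicle group than in GRwt/wt vehicle, by little for Rpl17. Rpl24, a protein at the interface between the subunits, stood at 0.276, 0.268 and 0.408 CPM in GRwt/wt with vehicle and 0.354, 0.234 and 0 with Dex, and at 0.148 and 0.155 in GRD/D vehicle and 0.286, 0.148 and 0.380 with Dex. For Rpl24, GRL/L had 0.389, 0.753 and 0.414 CPM with vehicle and 0.188, 0.664 and 0.213 with Dex, and GRD+L/D+L had 0.207, 0.274 and 0.353 with vehicle and 0.489, 0.402 and 0.229 with Dex. These values amount to at most 14 counts, too few to order the libraries.

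The stalk of the 60S subunit is built on Rplp0, to which pairs of Rplp1 and Rplp2 attach and recruit the elongation factors. Rplp2 (GRCm38 chr7:141447370-141451585 on the plus strand) stood at 1010.1, 654 and 524 CPM in GRwt/wt with vehicle and 617, 456 and 501 with Dex, and at 501 and 471 in GRD/D vehicle and 545, 568 and 516 with Dex. For Rplp2, GRL/L had 379, 393 and 361 CPM with vehicle and 401, 401 and 363 with Dex, and GRD+L/D+L had 411, 385 and 383 with vehicle and 403, 420.4 and 380.5 with Dex. It was higher in all 6 GRwt/wt libraries than in all 12 libraries with the L change. Rplp0 (GRCm38 chr5:115559467-115563727 on the plus strand) stood at 2953, 1667 and 902 CPM in GRwt/wt with vehicle and 1886, 1432 and 1362 with Dex, and at 859 and 799.6 in GRD/D vehicle and 904, 938 and 899.7 with Dex. For Rplp0, GRL/L had 1177, 1231 and 1184 CPM with vehicle and 1229, 1216 and 1177 with Dex, and GRD+L/D+L had 1371, 725 and 638 with vehicle and 1328, 709 and 682 with Dex. Rplp0 did not follow the genotypes: GRwt/wt vehicle 3 and the GRD+L/D+L libraries numbered 2 and 3 fell with GRD/D into a range of at most 938 CPM, the other libraries stood at 1177 CPM and more, and the counts of its pseudogenes changed in the same libraries, as described below.

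Of the 4 paralogues that were tested, Rps27l is a paralogue of Rps27 that p53 induces (GRCm38 chr9:66946086-66949516 on the plus strand). Rps27l stood at 318, 258 and 135 CPM in GRwt/wt with vehicle and 186, 145 and 201 with Dex, and at 167 and 143 in GRD/D vehicle and 155, 148 and 162 with Dex. For Rps27l, GRL/L had 113, 121 and 122 CPM with vehicle and 122, 121 and 111 with Dex, and GRD+L/D+L had 109, 112 and 128 with vehicle and 113, 126 and 135 with Dex. All 12 libraries with the L change lay below all 6 GRwt/wt libraries, although GRD+L/D+L Dex 3 and GRwt/wt vehicle 3 both round to 135 CPM. Rpl22l1, the partner paralogue of Rpl22, stood at 117, 114 and 110.4 CPM in GRwt/wt with vehicle and 107, 85.5 and 96.7 with Dex, and at 93.8 and 87 in GRD/D vehicle and 96.8, 109.9 and 106 with Dex. For Rpl22l1, GRL/L had 65.4, 77.6 and 85.8 CPM with vehicle and 76.1, 82.6 and 79.4 with Dex, and GRD+L/D+L had 93.7, 72.5 and 87.1 with vehicle and 95.3, 84.7 and 85.1 with Dex. Its 3 GRwt/wt Dex libraries lay below the 3 vehicle libraries. Rpl7l1, a paralogue of Rpl7, stood at 94.3, 69.8 and 79.3 CPM in GRwt/wt with vehicle and 67.5, 68.5 and 60.5 with Dex, and at 65.3 and 60.4 in GRD/D vehicle and 65.6, 75.1 and 63.7 with Dex. For Rpl7l1, GRL/L had 54.7, 56.2 and 55.6 CPM with vehicle and 56.5, 56.6 and 57.5 with Dex, and GRD+L/D+L had 78.4, 57.6 and 60.9 with vehicle and 71.6, 64.6 and 58 with Dex. For both, GRL/L and GRD/D vehicle lay below GRwt/wt vehicle, and so did GRD+L/D+L vehicle for Rpl22l1. Rpl39l, a form of Rpl39 best known from testis, stood at 14.1, 10.8 and 16.3 CPM in GRwt/wt with vehicle and 12, 7.07 and 8.80 with Dex, and at 17 and 14.4 in GRD/D vehicle and 18.6, 13.6 and 18.5 with Dex. For Rpl39l, GRL/L had 8.94, 21.1 and 7.14 CPM with vehicle and 12.3, 22.7 and 6.27 with Dex, and GRD+L/D+L had 1.24, 1.10 and 7.59 with vehicle and 1.20, 1.72 and 7.45 with Dex. Its lowest values were those of the GRD+L/D+L libraries numbered 1 and 2, at 1.10 to 1.72 CPM with either treatment, and those numbered 3 had 7.59 and 7.45 CPM. Rpl3l reached at most 0.107 CPM and Rpl10l at most 0.0589 CPM in any library.

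**Figure D2:**
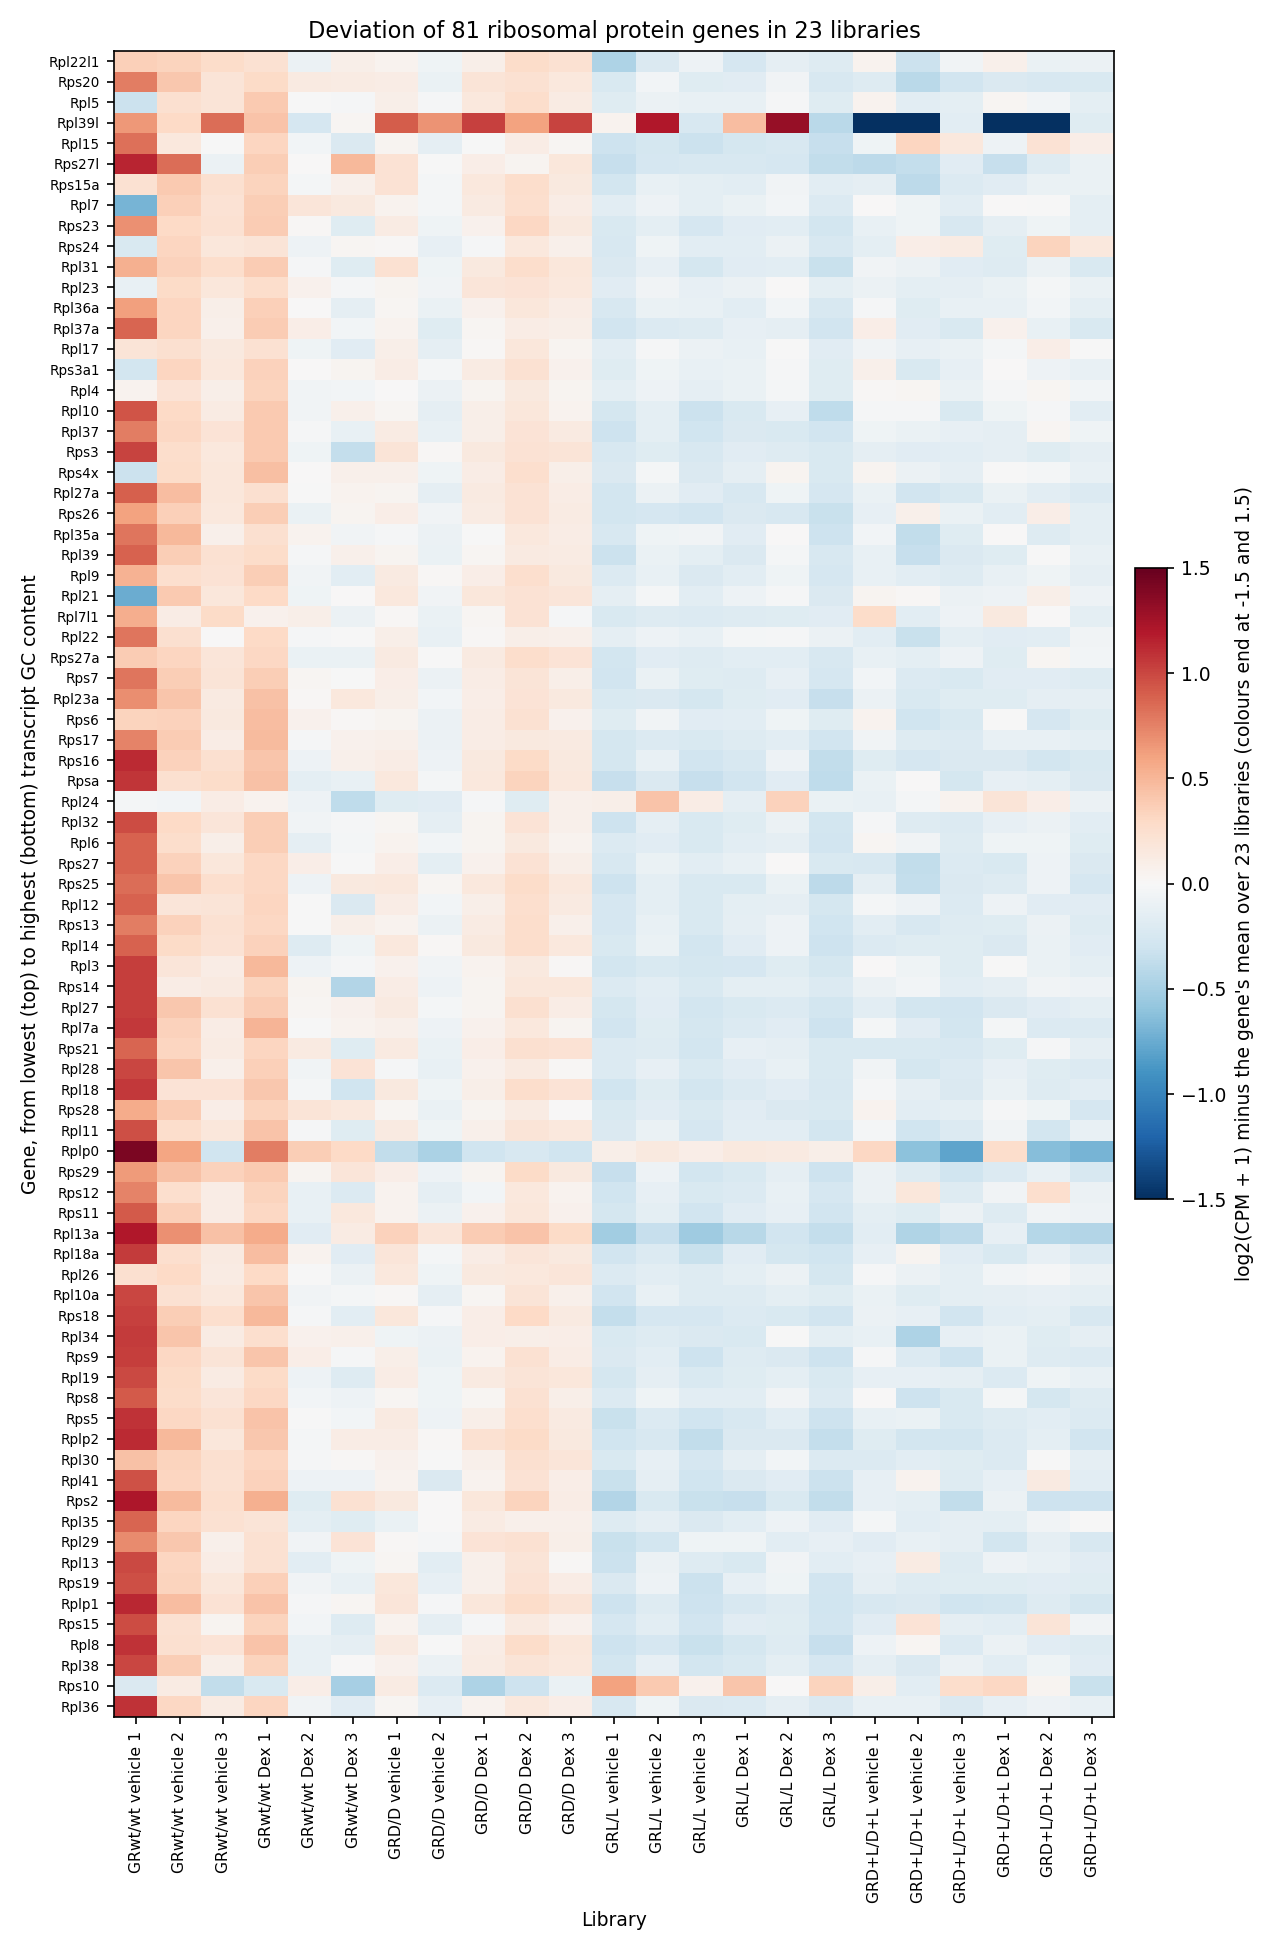
Deviation of each of the 81 tested genes (rows, ordered by transcript GC content) from its own mean over the 23 libraries (columns), in log2(CPM + 1), red above and blue below. GRwt/wt vehicle 1 is red for 72 genes and most of the GRD+L/D+L and GRL/L columns are blue, while Rpl39l, Rplp0 and Rps10 depart from the other rows.

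Dex against vehicle was compared within each genotype to see whether 5 h of receptor activation moved ribosomal protein mRNAs. In GRwt/wt cells, 76 of the 81 genes had a log2 fold change (LFC) below 0, with a median of -0.37 against -0.01 over all 15748 genes tested. None passed the thresholds of adjusted p ≤ 0.05 and |LFC| ≥ 1 in edgeR, nor the adjusted p alone. Of all tested genes, 0.159% passed both and 0.222% the adjusted p alone. An unadjusted p under 0.05 was reached by 51 members and 15.6% of all tested genes. DESeq2 called 0 members at both thresholds and 3 at the adjusted p alone, all lower. Of all genes to which it gave an adjusted p, 1.77% passed both thresholds in either direction and 2% were lower by the adjusted p alone. In the same comparison the median was -0.31 over 706 other short coding genes with a principal transcript of at most 1000 bases (568 of them below 0) and -0.30 over 77 mitochondrial ribosomal protein genes (68 below 0). The smallest p-values were those of Rpl35 with an LFC of -0.54 ± 0.14 (SE, edgeR adjusted p = 0.13) and Rpl13a with -0.62 ± 0.18 (SE, edgeR adjusted p = 0.16). Both passed the adjusted p in DESeq2, and in edgeR they passed when GRwt/wt vehicle 3 was left out (-0.62 and -0.73), and Rpl35 also without GRwt/wt vehicle 2 (-0.64). Without GRwt/wt vehicle 1 the median over the members was -0.14, and with an offset for GC content and length it was -0.06.

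No member passed either threshold with Dex in the 3 mutants, and 0% of all tested genes did in edgeR. An unadjusted p under 0.05 was reached by 0 members in each of these comparisons, against 0.978, 0.343 and 0.273% of all tested genes in GRD/D, GRD+L/D+L and GRL/L. DESeq2 called 0 members as well. By the adjusted p alone, 0.0102, 0.017 and 0% of all its genes passed in the same order, and in GRD/D 2 of 29375 genes passed both thresholds. In GRD/D cells, 80 of 81 members had an LFC above 0, with a median of 0.13, and the smallest p-values belonged to Rpl23 (0.19 ± 0.12 SE, edgeR adjusted p = 1) and Rpl22l1 (0.21 ± 0.14 SE, edgeR adjusted p = 1). That comparison set 3 Dex against 2 vehicle libraries without pairing. Leaving out each library in turn gave medians from 0.05 to 0.20. Medians were 0.02 in GRL/L cells, where Rpl24 (-0.55 ± 0.63 SE, edgeR adjusted p = 1) and Rpl29 (0.11 ± 0.14 SE, edgeR adjusted p = 1) had the smallest p-values, and 0.02 in GRD+L/D+L cells, where these were Rps15a (0.12 ± 0.11 SE, edgeR adjusted p = 1) and Rpl17 (0.11 ± 0.11 SE, edgeR adjusted p = 1). The difference between each mutant's Dex response and that of GRwt/wt was also tested directly, and no member passed in edgeR or in DESeq2. Of all genes, 0% passed in edgeR for GRD/D and 0.0254% for each mutant with the L change. In DESeq2, 0.264, 0.138 and 0.178% passed the adjusted p alone. An unadjusted p under 0.05 was reached by 39 members for GRD/D, 9 for GRL/L and 12 for GRD+L/D+L, against 7.11, 6.29 and 5.05% of all tested genes. The medians were 0.49, 0.37 and 0.37 and all rest on the same GRwt/wt libraries, as do those of the other short coding genes at 0.35, 0.32 and 0.29. The smallest p-values were those of Rpl35 (0.69 ± 0.21 SE, edgeR adjusted p = 0.69) and Rpl27a (0.64 ± 0.21 SE, edgeR adjusted p = 0.69) for GRD/D, Rpl35 (0.58 ± 0.20 SE, edgeR adjusted p = 0.78) and Rpl13a (0.73 ± 0.26 SE, edgeR adjusted p = 0.78) for GRL/L, and Rpl35 (0.59 ± 0.20 SE, edgeR adjusted p = 0.97) and Rpl39 (0.53 ± 0.20 SE, edgeR adjusted p = 0.97) for GRD+L/D+L. The medians of these differences without GRwt/wt vehicle 1 were 0.27, 0.17 and 0.16.

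The receptor mutants were next compared with GRwt/wt in vehicle, that is, without added ligand, and these 3 comparisons share the same 3 GRwt/wt libraries. In GRD/D cells, 78 of 81 members had an LFC below 0 (median -0.47, all tested genes -0.06). None passed both thresholds or the adjusted p alone in edgeR, where 0.00635% and 0.0127% of all tested genes did. An unadjusted p under 0.05 was reached by 60 members and 12.4% of all tested genes, and DESeq2 called 0 members at both thresholds and 5 as lower at the adjusted p alone, against 0.206% of all its genes in either direction and 0.536% lower. The medians of the other short coding genes and of mitochondrial ribosomal protein genes were -0.34 and -0.35. Both GRD/D libraries lay below all 3 GRwt/wt libraries for 62 members, as they did for 12.1% of all tested genes. The smallest p-values were those of Rpl27a (-0.58 ± 0.16 SE, edgeR adjusted p = 0.32) and Rpl35 (-0.55 ± 0.16 SE, edgeR adjusted p = 0.33), which passed the adjusted p in DESeq2 and, in edgeR, without GRwt/wt vehicle 3 (-0.69 and -0.62). Without GRwt/wt vehicle 1 the median was -0.24 and no member was called, and without GRwt/wt vehicle 3, 1 member (Rplp0) passed both thresholds.

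In GRL/L cells ribosomal protein mRNAs were lower than in GRwt/wt across both subunits. In vehicle, 68 of the 81 members (84.0%) passed the adjusted p alone and all 68 were lower, against 14.2% of all tested genes in that direction. They comprised 27 of 31 40S genes, 36 of 43 60S genes, 2 of 3 stalk genes and 3 of 4 paralogues, with LFC from -1.29 to -0.41. The median over the 81 members was -0.69 (40S -0.67, 60S -0.70) and that over all tested genes -0.05, and all 3 GRL/L libraries lay below all 3 GRwt/wt libraries for 70 members and 18.4% of all tested genes. Both thresholds were passed by 3 members, all lower, against 2.84% of all genes in that direction, namely Rpl13a (LFC -1.29 ± 0.19 SE, edgeR adjusted p = 0.00029), Rps2 (-1.04 ± 0.20 SE, edgeR adjusted p = 0.0019) and Rps27l (-1.0004 ± 0.21 SE, edgeR adjusted p = 0.0029). Rplp2 had the next largest fall, with an LFC of -0.95 ± 0.17 (SE, edgeR adjusted p = 0.0013). The 13 members that did not pass were Rpl4, Rpl5, Rpl7, Rpl17, Rpl21, Rpl23, Rps3a1, Rps4x and Rps24, with LFC from -0.29 to -0.13, Rplp0 (-0.62), Rpl39l (-0.14), and the low rows Rpl24 (0.69) and Rps10 (0.79).

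The direction in GRL/L held without GRwt/wt vehicle 1, but the sizes did not. Without that library 71 members passed the adjusted p, the median was -0.45, and of the 3 called genes Rpl13a alone kept both thresholds (-1.05, with Rps2 at -0.70, Rps27l at -0.72 and Rplp2 at -0.64). Of 15605 other tested genes, 1892 were then lower and 1868 higher by the adjusted p. The number of members past both thresholds was 8 without GRwt/wt vehicle 2, 5 without GRwt/wt vehicle 3 and 1 without GRL/L vehicle 1. With an offset for GC content and length the median was -0.21 and 28 members passed the adjusted p (27 lower and Rps10 higher). In that fit 1630 of all 15748 tested genes were lower and 1215 higher by the adjusted p. In a fit of the libraries of these 2 genotypes alone 40 members passed, and the number over all genes is not given here. Macrophage markers were summed to 286 to 646 CPM in GRL/L vehicle and to 18.1 to 4402 in GRwt/wt vehicle, and their part in these values was not tested.

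In GRD+L/D+L cells the same comparison gave 65 of 81 members (80.2%) past the adjusted p, all lower, against 13.3% of all tested genes in that direction. These were 25 of 31 40S genes, 35 of 43 60S genes, all 3 stalk genes and 2 of 4 paralogues, with a median over all 81 members of -0.62 (all tested genes -0.05), and for 65 members all GRD+L/D+L libraries lay below all GRwt/wt libraries (13.9% of all tested genes). Both thresholds were passed by 3 members, all lower, against 4.71% of all genes in that direction, namely Rpl13a (-1.16 ± 0.19 SE, edgeR adjusted p = 0.001), Rps27l (-1.03 ± 0.21 SE, edgeR adjusted p = 0.0035) and Rplp0 (-1.01 ± 0.34 SE, edgeR adjusted p = 0.045), followed by Rps2 (-0.92 ± 0.20 SE, edgeR adjusted p = 0.0053). Rpl39l had the most negative LFC of all members (-2.06 ± 0.72 SE, edgeR adjusted p = 0.051), did not pass in edgeR and passed both thresholds in DESeq2, and is given here after its values were seen. Without GRwt/wt vehicle 1, 52 members passed the adjusted p, none passed both thresholds and the median was -0.36. Of 15605 other tested genes, 1882 were then lower and 1798 higher by the adjusted p. The number of members past the adjusted p was 43 when GRD+L/D+L vehicle 2 was left out and 41 for GRD+L/D+L vehicle 3. Past both thresholds there was 1 when the former was left out and 6 for GRwt/wt vehicle 3. With the GC and length offset 20 members passed the adjusted p and the median was -0.21. In that fit 1547 of all 15748 tested genes were lower and 972 higher by the adjusted p. In a fit of these 2 genotypes alone, no member passed (median -0.57). Macrophage markers summed to 9.70 to 77.3 CPM in GRD+L/D+L vehicle, and their part in these values was not tested. The call of Rplp0 was also lost without GRD+L/D+L vehicle 2 or 3 or GRwt/wt vehicle 1 or 2 (LFC from -1.11 to -0.48).

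**Figure D3:**
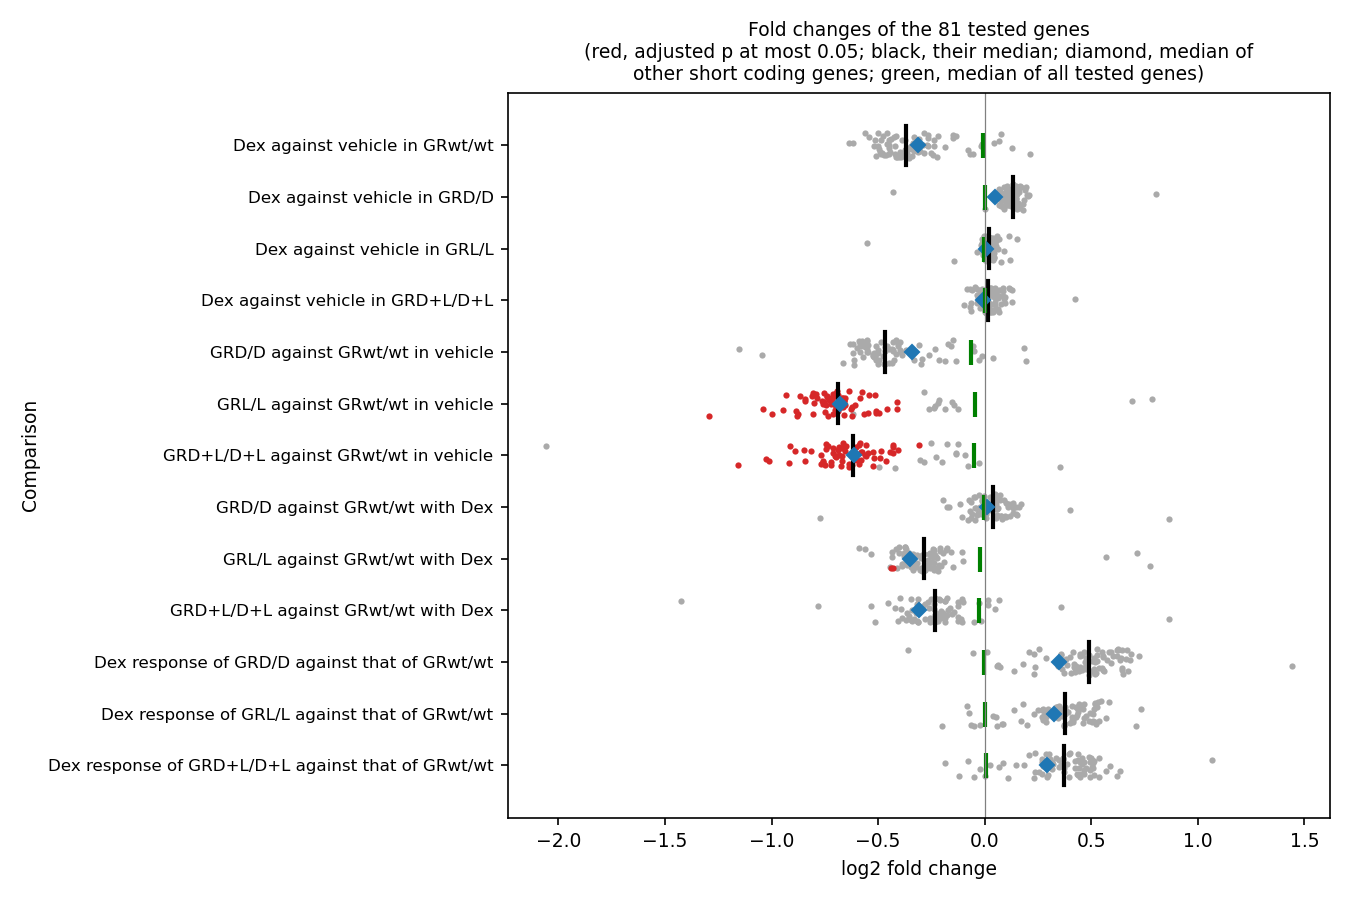
LFC of each of the 81 tested genes (points, red where the edgeR adjusted p is at most 0.05) in 13 comparisons, with the median of the members (black line), of other short coding genes (blue diamond) and of all tested genes (green line). In vehicle the median is -0.69 for GRL/L and -0.62 for GRD+L/D+L, beside -0.68 and -0.61 for the other short coding genes.

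With Dex in both arms the differences from GRwt/wt were smaller. In GRL/L, 78 of 81 members had an LFC below 0 (median -0.29, all genes -0.02), and 2 passed the adjusted p, against 2.9% of all tested genes in that direction, namely Rps29 (-0.44 ± 0.12 SE, edgeR adjusted p = 0.042) and Rps28 (-0.43 ± 0.11 SE, edgeR adjusted p = 0.034). No member passed both thresholds, while 2.59% of all genes did, and 28 members had an unadjusted p under 0.05, against 22.7% of all tested genes. DESeq2 called 0 members at both thresholds and 12 as lower at the adjusted p alone, against 4.47% of all its genes in either direction and 6.03% lower. The median was -0.35 for the other short coding genes. The count of 2 fell to 0 without any 1 of GRL/L Dex 1, 2 or 3 or of GRwt/wt Dex 1 or 3, rose to 4 without GRwt/wt Dex 2, and was 0 with the GC and length offset. All GRL/L Dex libraries lay below all GRwt/wt Dex libraries for 51 members and 20.4% of all tested genes.

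In GRD+L/D+L with Dex, 75 of 81 members had an LFC below 0 (median -0.23, all genes -0.03), and none passed in edgeR, where 2.75% of all tested genes passed both thresholds and 4.89% the adjusted p alone. An unadjusted p under 0.05 was reached by 22 members and 20.9% of all tested genes, and the median of the other short coding genes was -0.31. DESeq2 called 0 members at both thresholds and 4 as lower at the adjusted p alone, against 4.66% of all its genes in either direction and 5.2% lower, and 31 members (14.7% of all genes) did not overlap with GRwt/wt and lay below it. The smallest p-values were those of Rps29 (-0.40 ± 0.12 SE, edgeR adjusted p = 0.063) and Rps20 (-0.42 ± 0.13 SE, edgeR adjusted p = 0.066), and Rps29 passed without GRwt/wt Dex 2 (-0.48). In GRD/D with Dex the median was 0.04 and no member passed in edgeR or DESeq2. Of all genes, 0.254% passed both thresholds and 0.305% the adjusted p alone in edgeR, and 2.67% the adjusted p alone in DESeq2. There 1 member had an unadjusted p under 0.05 (11.1% of all genes), and 2 lay below GRwt/wt without overlap (12.4% of all genes). The smallest p-values there were those of Rplp0 (-0.77 ± 0.34 SE, edgeR adjusted p = 0.4) and Rps28 (-0.17 ± 0.11 SE, edgeR adjusted p = 0.7).

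Other groups of genes give the scale of these differences. Of the 706 other short coding genes, 329 were lower and 6 higher in GRL/L vehicle by the adjusted p, with a median LFC of -0.68, and 319 were lower and 6 higher in GRD+L/D+L vehicle, with a median of -0.61. The 77 tested mitochondrial ribosomal protein genes, which serve a separate ribosome, had 57 lower in GRL/L (median -0.55) and 46 lower in GRD+L/D+L (median -0.50), and none higher. The medians of the cytosolic genes were therefore close to those of other short mRNAs, and the difference between these groups was not tested. Without GRwt/wt vehicle 1 the GRL/L medians were -0.53 for other short coding genes and -0.43 for mitochondrial ribosomal proteins, beside -0.45 for the members. For GRD+L/D+L they were -0.44, -0.31 and -0.36. Of 20 other translation genes known for a pyrimidine run at their start, 8 were lower and none higher in both genotypes (medians -0.34 and -0.15), among them Fau (-0.85 and -0.75), which codes for the ribosomal protein eS30, Rack1 (-0.82 and -0.64), a scaffold on the 40S head, and the mRNA-binding protein Ybx1 (-0.86 and -0.85). These 3 genes were picked after their values were seen, and their LFC had edgeR adjusted p-values from 0.0017 to 0.038.

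Genes that build or control ribosomes were counted at the adjusted p alone. Among all tested genes, 8.83% were higher and 14.2% lower in GRL/L vehicle (median -0.05), and 7.14% and 13.3% in GRD+L/D+L vehicle (median -0.05). Of 28 ribosome assembly genes, 5 were lower and 1 higher in GRL/L vehicle (median 0.06) and 1 was lower and 1 higher in GRD+L/D+L vehicle (median 0.14). Fbl, the nucleolar methyltransferase fibrillarin, was lower (-0.87 and -0.57) and Polr1a, the largest subunit of RNA polymerase I, was higher (0.49 and 0.84). Of 17 genes of mTORC1 and its control of these mRNAs, 2 were higher and 3 lower in GRL/L vehicle (median 0.01), while 7 passed in GRD+L/D+L vehicle, 3 of them higher and 4 lower (median 0.11). Eif4ebp1, the translation repressor that mTORC1 inactivates, was lower (-1.20 and -1.04), as was the mTORC1 inhibitor Ddit4 (-0.91 and -0.38), whereas Tsc1, a further inhibitor (0.77 and 0.79), and Larp1 (0.33 and 0.40) were higher. All of these genes were singled out after their values were seen, with edgeR adjusted p-values from 0.0002 to 0.039. Sesn1, an mTORC1 inhibitor, was the only gene of this list past the adjusted p with Dex in GRwt/wt, with an LFC of 1.501 (edgeR adjusted p = 0.0016). Without GRwt/wt vehicle 1, 5 genes of this list were higher and 3 lower in GRL/L vehicle. In GRD+L/D+L vehicle 8 then passed the adjusted p, 6 of them higher and 2 lower. The assembly list then had 2 higher and 3 lower in GRL/L, and 5 higher and none lower in GRD+L/D+L, and the list of other translation genes had 9 and 4 lower and 0 and 1 higher.

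Most members followed 1 common course across libraries. After subtraction of the members' median in each library, the SD of a gene's departure over 23 libraries had a median of 0.092 on the log2 scale, and it was under 0.2 for 68 of 81 genes. The widest departures were those of Rpl39l (SD 1.25), Rpl24 (0.70), Rps10 (0.62) and Rplp0 (0.42), followed by Rpl21, Rpl7, Rps24, Rps4x, Rpl5 and Rps3a1 (0.26 to 0.36), whose lowest departure, from -1.63 to -1.11, was in GRwt/wt vehicle 1 each time. Across the 81 members the LFC of GRL/L against GRwt/wt in vehicle fell with GC content (Spearman's correlation -0.49), as did those of GRD+L/D+L (-0.34) and GRD/D (-0.50) in vehicle and of Dex in GRwt/wt (-0.49). The correlation was -0.10, -0.12 and 0.025 for GRL/L, GRD+L/D+L and GRD/D with Dex, comparisons that do not use the GRwt/wt vehicle libraries. These correlations are descriptive, since members share libraries. In GRwt/wt vehicle 1 itself the median deviation was 0.88 for the members, 0.69 for the other short coding genes and 0.70 for mitochondrial ribosomal protein genes.

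Copies of the members were searched by sequence, at an identity of at least 80% over at least 50% of the transcript. The genome held 1440 such pseudogene rows for 67 of the 83 members, led by Rpl7a with 149, Rpl29 with 105, Rpl21 with 90, Rps2 with 86 and Rpl17 with 70. With the rows added by symbol (1480 in all), 686 had no count in any library, 36 had a median over 1 CPM and 7 over 10 CPM. These 7, picked after their values were seen, were Gm11942 (a copy of Rplp1, median 59.9 CPM), Rpl3-ps1 (48.3), Rps2-ps10 (22.9), Gm8730 (a copy of Rplp0, 17.0), Gm13436 (Rpl18, 14.0), Gm6472 (Rps7, 13.9) and Gm11478 (Rpl13a, 12.3). Gm11942 stood at 147, 90.1 and 73.4 CPM in GRwt/wt with vehicle and 93.3, 68.4 and 66.3 with Dex, and at 77.4 and 65.9 in GRD/D vehicle and 69.7, 79.1 and 75.7 with Dex. For Gm11942, GRL/L had 46.7, 54.9 and 48.9 CPM with vehicle and 49.6, 49.95 and 49.2 with Dex, and GRD+L/D+L had 54.9, 59.9 and 52.4 with vehicle and 49.6, 52.7 and 48.7 with Dex. GRwt/wt vehicle 1 was its highest library, and all 12 libraries with the L change lay below all 6 GRwt/wt libraries. All pseudogene rows together took 0.0224 to 0.0714% of the counts of a library. Of the 86 tested pseudogene rows, 26 were lower and none higher by the adjusted p in GRL/L vehicle (median LFC -0.83) and 11 lower and none higher in GRD+L/D+L vehicle (median -0.59), and without GRwt/wt vehicle 1 these counts were 11 and 4 of 82.

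**Figure D4:**
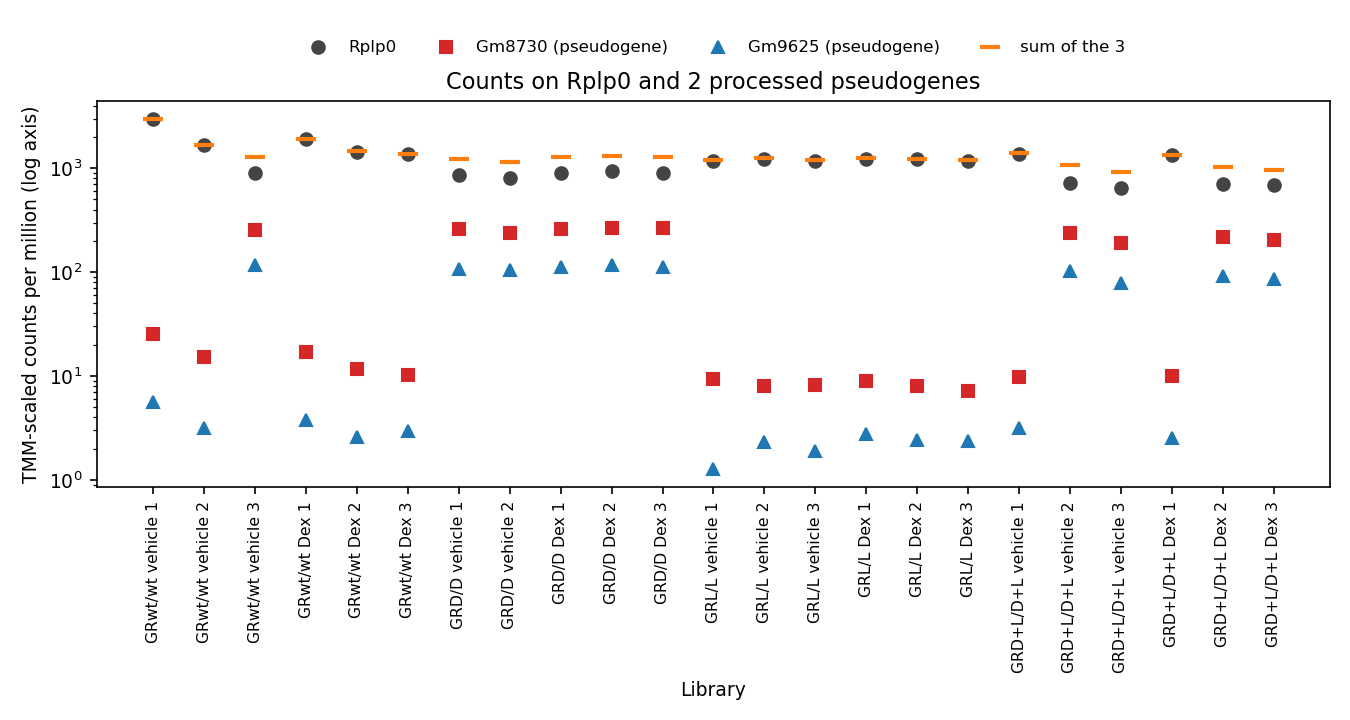
CPM (log axis) of Rplp0, of its processed pseudogenes Gm8730 and Gm9625, and of the sum of the 3, in each of the 23 libraries. In 10 libraries the pseudogenes stand at 192 to 268 and 78.6 to 116 CPM and Rplp0 at 638 to 938 CPM, and in the other 13 the pseudogenes stand below 26 CPM.

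In the libraries where 2 copies of Rplp0 had high counts, the row of Rplp0 itself was low. Gm8730 (GRCm38 chr8:102864845-102865798, minus strand) and Gm9625 (chr13:67810246-67811200, plus strand) are processed pseudogenes that align with 954 bases of the Rplp0 transcript at 98.7 and 97.5% identity. Gm8730 stood at 25.5, 15.3 and 256 CPM in GRwt/wt with vehicle and 17, 11.6 and 10.3 with Dex, and at 261 and 239.9 in GRD/D vehicle and 257, 268 and 268 with Dex. For Gm8730, GRL/L had 9.44, 8.07 and 8.27 CPM with vehicle and 8.96, 8.02 and 7.13 with Dex, and GRD+L/D+L had 9.74, 237 and 192 with vehicle and 10.01, 215 and 202 with Dex. This row changed by more than 10 times between libraries. Gm9625 stood at 5.63, 3.17 and 116 CPM in GRwt/wt with vehicle and 3.74, 2.62 and 2.93 with Dex, and at 106 and 106 in GRD/D vehicle and 111, 116 and 111 with Dex. For Gm9625, GRL/L had 1.28, 2.31 and 1.91 CPM with vehicle and 2.77, 2.43 and 2.39 with Dex, and GRD+L/D+L had 3.16, 101 and 78.6 with vehicle and 2.56, 92.7 and 85.3 with Dex. Both rows were high in the same 10 libraries, namely GRwt/wt vehicle 3, all 5 GRD/D libraries and the GRD+L/D+L libraries numbered 2 and 3 with either treatment, and low in the other 13. The copies made up 28.9 to 31.8% of the sum of the 3 rows in the former libraries and 0.802 to 1.10% in the latter. The row of Rplp0 was low in those same 10 libraries, at 638 to 938 CPM, while the sum of the 3 rows ran from 909 to 1323 CPM there and from 1186 to 2984 CPM in the other 13.

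The copies differed from Rplp0 by 12 and 24 substitutions, of which 8 were the same in both and lay within the coding region, T193C, G259C, T313C, A511G, A514G, T724G, A817G and A905G, with the base of Rplp0 first and positions counted from 1 at the 5′ end of its transcript of 1358 bases. A stretch with 2 of the shared differences is shown because bases there distinguish the gene from its copies (positions 485 to 514 of Rplp0 and 364 to 393 of each pseudogene), with the differing bases in capitals.
Rplp0: actgtgccagctcagaacactggtctAggA
Gm8730: actgtgccagctcagaacactggtctGggG
Gm9625: actgtgccagctcagaacactggtctGggG
Counts cannot show which bases the reads carried. With the counts of all copies added to their members, an alternative chosen after the data were seen, the LFC of Rplp0 was -0.78 for GRD+L/D+L against GRwt/wt in vehicle (from -1.01) and -0.28 for GRD/D against GRwt/wt with Dex (from -0.77).

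Some members had low rows and shared their exons with another gene. On the same strand, 71.5% of the exonic bases of Rpl24 overlap Gm28037, 91.6% of those of Rps10 overlap RPS10-NUDT3, and 59.3% of those of Rpl13a overlap Gm45713, and the rows of these 3 overlapping genes were at 0 in every library. These were the 3 members with such an overlap over 50%, and their levels per kilobase were 0.407, 3.46 and 47.0 CPM, against the median of 489 over all members. Rps10 stood at 1.27, 1.88 and 1.04 CPM in GRwt/wt with vehicle and 1.26, 1.83 and 0.874 with Dex, and at 1.87 and 1.29 in GRD/D vehicle and 0.915, 1.13 and 1.47 with Dex. For Rps10, GRL/L had 3.00, 2.48 and 1.76 CPM with vehicle and 2.53, 1.66 and 2.34 with Dex, and GRD+L/D+L had 1.81, 1.37 and 2.18 with vehicle and 2.28, 1.72 and 1.09 with Dex. All 6 GRL/L libraries lay above the 3 GRD/D Dex libraries, and the highest values were those of GRL/L vehicle 1 and GRL/L Dex 1. Reads that fell on bases of both genes were not told apart in these rows, and the part of the overlap in their low levels was not tested. Across members the level per kilobase was close to unrelated to the percent of a transcript's 50-base windows that occur in another gene (Spearman's correlation -0.01 over 77 members), although such windows made up 50% or more of the transcript for 48 members.

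**Figure D5:**
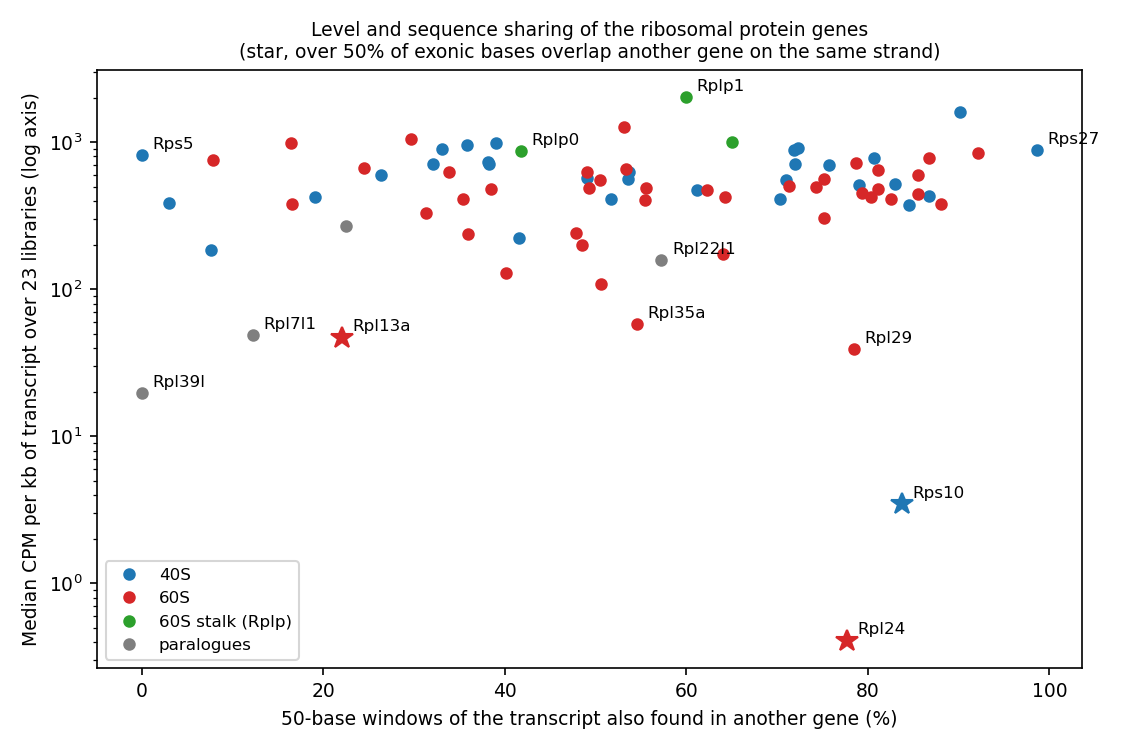
Median CPM per kb of transcript over 23 libraries (log axis) against the percent of 50-base windows of the transcript that are also found in another gene, for the members with counts, coloured by subunit. Stars mark Rpl24, Rps10 and Rpl13a, whose exons overlap another gene on the same strand over more than 50% of their bases and whose levels are 0.407, 3.46 and 47.0 CPM per kb.

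In the study's own PCR, a gene given only as Rpl served as a reference in MEFs. Its forward primer, shown because it could be matched by sequence, is an exact match to transcripts of Rpl13a and of the overlapping Gm45713 and of no other gene.
forward primer: cctgctgctctcaaggtt
The reverse primer had no exact match in the transcripts. As given above, Rpl13a ranged from 37.9 to 128 CPM and was the member with the lowest adjusted p in GRD+L/D+L and GRL/L vehicle.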

How the data were processed

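RNA from MEF cultures was sequenced after TruSeq library preparation. The authors aligned reads to the mouse genome (GRCm38/mm10) with HISAT2 2.1.0 and deposited featureCounts 2.0.0 counts per gene of uniquely mapped reads. The annotation release and the strand setting are not given in the sources used here, so overlapping genes, antisense genes and near-identical copies are uncertain. Here the 55487 rows were matched to symbols (55227 matched). edgeR 4.0.16 (R 4.3.3) fitted 8 group means to all 23 libraries with TMM scaling, its default filter (15748 genes left) and quasi-likelihood tests, with Benjamini-Hochberg adjustment over all tested genes. A gene was called at an adjusted p of at most 0.05 and an LFC of at least 1 in size. CPM are TMM-scaled and without a pseudocount. The scripts were tested on simulated data in which 200 genes were changed.

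Values in every library were given for Rplp0, Rps6, Rpl13a, Rps18, Rpl5, Rpl11, Rpl41, Rpl10, the paralogues, and the genes named for a comparison. These were the 4 largest rises and 4 largest falls among members past the adjusted p, or, where none passed, the 2 with the smallest p. Other genes are marked as chosen after their values were seen. The members, the lists (other translation genes known for a pyrimidine run, ribosome assembly, mTORC1 control, mitochondrial ribosomal proteins, pseudogenes, other short coding genes, cell type markers) and the rules were chosen with earlier results of these data known. Copies were found with BLAST+ 2.17.0, and sequences are from RefSeq and from the transcripts of the reference annotation. Alternatives were other scalings, filters and thresholds, DESeq2 1.42.0, a replicate block, an offset for GC content and length (mgcv 1.9.3), fits of the compared genotypes alone, each library left out in turn and, added after the data were seen, copies summed into their members. p-values measure the spread between these libraries.

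Same-numbered vehicle and Dex libraries deviated from their group means together in GRL/L (r from 0.32 to 0.64) and GRD+L/D+L (0.65 to 0.89), and not in all pairs of GRwt/wt (0.55, 0.03 and -0.03) or GRD/D (0.28 and -0.20), so replicate numbers were taken to pair vehicle and Dex libraries of GRD+L/D+L and of GRL/L, and in neither of the other genotypes nor between genotypes.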

Additional observations from a re-analysis of the deposited data

How the results depend on the processing

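Leaving out each library in turn gave 62 to 71 members past the adjusted p and 1 to 8 past both thresholds for GRL/L in vehicle (median LFC -0.79 to -0.45), 41 to 67 and 0 to 6 for GRD+L/D+L in vehicle (-0.72 to -0.36), 0 to 1 past both for GRD/D in vehicle (-0.58 to -0.24), and 0 to 4 past the adjusted p for GRL/L with Dex (-0.36 to -0.16). Among these fits, GRL/L in vehicle had its lowest count past both thresholds without GRL/L vehicle 1 or GRwt/wt vehicle 1 and its highest without GRwt/wt vehicle 2. For GRD+L/D+L the lowest was without GRwt/wt vehicle 1 and the highest without GRwt/wt vehicle 3.

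Without the fold threshold, 68, 65 and 2 members counted as called in GRL/L vehicle, GRD+L/D+L vehicle and GRL/L with Dex. For GRL/L in vehicle, the members past both thresholds (3) became 9 with upper-quartile scaling, 1 with at least 10 counts in every library, 1 with copies summed, and 6 with the GC and length offset, with or without a replicate block. Of all 15748 tested genes, 777 were higher and 448 lower past both in the main fit. These numbers were 706 and 795 with upper-quartile scaling, and 546 and 455 with the offset. With copies summed they were 776 and 377 of 15665 genes. Past the adjusted p were 28 members with the offset (median -0.21), 32 with the offset and block (median -0.21) and 40 with only the genotypes compared. For GRD+L/D+L in vehicle, the members past both thresholds (3) became 9 with upper-quartile scaling, 1 with RLE scaling, TMM factors without the members, no filter, at least 10 counts or copies summed, 5 with the offset, with or without the block, and 0 with only the genotypes compared. Of all 15748 tested genes, 570 were higher and 741 lower past both in the main fit. These numbers were 501 and 1075 with upper-quartile scaling, 591 and 672 with RLE scaling, and 390 and 779 with the offset. For the fits with no filter, at least 10 counts or only the genotypes compared they are not given here. Past the adjusted p were 35 members with no filter, 20 with the offset (median -0.21), 23 with the offset and block (median -0.21) and 0 with only the genotypes compared. For GRL/L with Dex, the 2 members past the adjusted p became 12 with DESeq2, 1 with the offset and block, and 0 with upper-quartile scaling, no filter, the offset, or only the genotypes compared. Upper-quartile scaling moved the median of all genes from -0.05 to -0.17 in GRL/L vehicle and from -0.05 to -0.19 in GRD+L/D+L vehicle. The LFC of Rpl24 with Dex in GRL/L, a row of at most 14 counts, turned from -0.55 to 0.19 with copies summed. The cause of these changes was not tested.

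With the replicate block alone, 68 and 66 members passed the adjusted p in GRL/L vehicle and GRD+L/D+L vehicle, 3 in GRL/L with Dex, and 7 with Dex in GRwt/wt, where none passed without it. Between genotypes the block joined libraries by number alone, and the numbers pair nothing there. These counts, and those with offset and block, are therefore no check on the genotype comparisons. The numbers do not pair the GRwt/wt libraries either, so the 7 rests on an arbitrary pairing. Numbers over all genes in the blocked fits are not given here. Of the comparisons of Dex with vehicle, those in GRD+L/D+L and GRL/L are the ones whose libraries the numbers pair, and 0 members passed the adjusted p there in edgeR with the block (0 at an unadjusted p under 0.05), as without it. Apart from the left-out libraries, 294 values of single genes kept their direction and side of the threshold, 12 gained and 21 lost significance, and 1 reversed.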
